A study of Neotoma stephensi and Rattus norvegicus with 6 samples.

Results

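Oxidative phosphorylation makes most of the ATP of a resting cell. Complexes I (NADH dehydrogenase) and II (succinate dehydrogenase) pass electrons through ubiquinone to complex III (cytochrome bc1), cytochrome c carries them on to complex IV (cytochrome c oxidase), and complexes I, III and IV pump the protons that drive complex V (ATP synthase). Most subunits are encoded in the nucleus and imported into mitochondria, while a small core of complexes I, III, IV and V is encoded by mitochondrial DNA, and complex II is encoded by the nucleus alone. Several subunits of complex IV exist as a common form and a form known from heart, skeletal muscle, lung or testis.

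The genes examined here were chosen by symbol (Nduf, Sdha to Sdhd, Uqcr, Cox4i, Cox5, Cox6, Cox7, Cox8 and Atp5 prefixes, with Cyc1 and Cycs), without use of their counts, and 96 of the 15481 genes in the deposited counts met the rule. They comprise 36 genes of complex I, 4 of complex II, 9 of complex III including Cyc1, 18 of complex IV including Ndufa4 and its paralogue Ndufa4l2, 15 of complex V and cytochrome c (Cycs). The remaining 13 are the Ndufaf and Sdhaf assembly factors, which share the prefix but are not subunits, and Atp5s and Atp5sl, which are named after ATP synthase. All 96 had reads, and 95 passed the filter of 1 CPM (counts scaled to library size, TMM-normalized) in at least 3 animals. Only Cox8b, a muscle form of a complex IV subunit, did not pass, with 1, 2 and 0 reads in woodrats 1, 2 and 3 but 0 in each lab rat.

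Foregut tissue from the fornix ventricularis of the stomach was profiled by stranded mRNA sequencing in 3 Stephens' woodrats (Neotoma stephensi) and 3 Sprague Dawley lab rats (Rattus norvegicus), all of them females, with 1 library per animal and no age in the labels. The labels give every animal as virgin, which the study did not know for the woodrats. The woodrats were caught wild and fed juniper foliage, whereas the lab rats were kept on rat chow, so species, origin and diet cannot be told apart. The comparison was made because woodrats, unlike lab rats, keep many microbes in the foregut. Reads of both species were counted on mouse transcripts, so the match of each gene to its mouse sequence differs between species, and its part in the differences below was not tested.

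Libraries held between 5439642 and 7932637 counted reads, and the genes examined here took between 1.242% and 1.458% of the reads of a woodrat and between 1.561% and 2.116% of those of a lab rat. Of the 12603 genes tested, 2516 (20.0%) were differentially abundant at a false discovery rate (FDR) below 0.01, 1292 (10.3%) toward woodrats and 1224 (9.71%) toward lab rats (edgeR quasi-likelihood test). Lab rat 3 stood apart for the genes of interest and for the cytosolic ribosomal proteins. The latter summed to 215363 CPM in lab rat 3 and to between 89418 and 131166 CPM in the other animals. Lab rat 3 and woodrat 1 had the lowest TMM factors, 0.836 and 0.896, beside 1.019 to 1.113 in the others. A lower factor raises every CPM of a library. All tested genes summed to 905783, 898809 and 1195895 CPM in lab rats 1, 2 and 3. Without this scaling, the genes of interest took 1.561%, 1.636% and 2.116% of the reads of these lab rats. Keratins of stratified epithelium were abundant in every animal (Krt13 at 8386 CPM or more), and the parietal cell marker Atp4a stayed between 5.69 and 9.76 CPM. The smooth muscle markers summed to 125227, 60485 and 40952 CPM in woodrats 1, 2 and 3 and to between 11273 and 20530 CPM in lab rats.

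Most oxidative phosphorylation genes did not differ between the species beyond the spread between animals. At an FDR below 0.01, 6 of the 95 tested genes (6.32%) were differentially abundant, against 20.0% of all tested genes and 19.5% of the 2938 tested genes with a mean of at least 50 CPM. The muscle form of a complex IV subunit, Cox6a2, and the complex I assembly factor Ndufaf1 were more abundant in woodrats. The complex III core protein Uqcrc1, the testis form Cox6b2, and the complex II assembly factors Sdhaf1 and Sdhaf4 were more abundant in lab rats. Of the 76 subunits and cytochrome c that remain without the assembly genes and the tissue-specific forms and paralogues, 1 (Uqcrc1) passed the threshold.

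**Figure D1:**
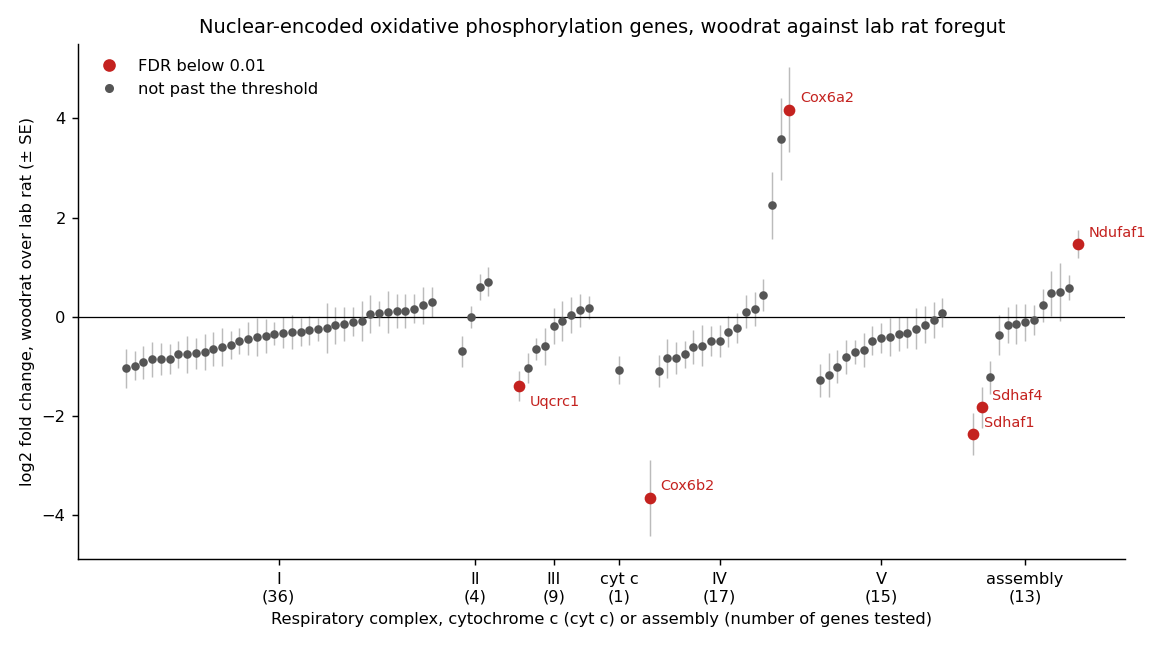
Log2 fold change (y axis, woodrat over lab rat, with its standard error) of the 95 tested genes, ordered by size within each complex, cytochrome c or the assembly group (x axis, number of genes tested in brackets). The 6 genes at an FDR below 0.01 are red and named, and the other 89 lie mostly between -1 and 1.

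The log2 fold changes of the 95 genes had a median of -0.32, with the middle of the distribution between -0.73 and 0.04, beside a median of 0.03 and quartiles of -0.76 and 0.89 over all tested genes. Of these genes, 70 had a negative and 25 a positive value, and 79 (83.2%) lay within a log2 fold change of 1 in either direction. This share was 57.7% for all tested genes and 67.7% for those with a mean of at least 50 CPM. All 3 woodrats exceeded all 3 lab rats for 6 genes and lay below them for 29, and the species overlapped for 60 (63.2%), where 56.2% of all tested genes, and 56.0% of those with a mean of at least 50 CPM, did not overlap. At an FDR below 0.05, 4 genes were higher and 13 lower in woodrats (17.9% together), beside 39.9% of all tested genes. Their standard errors had a median of 0.34, and the smallest absolute log2 fold change called among them was 1.39. Atp5g2 at -1.28 (FDR = 0.0161) and Cycs at -1.07 (FDR = 0.0164) were not called in this edgeR fit. DESeq2 called both lower in woodrats, and also Cyc1, Cox7b and Ndufaf7. With total counts only, edgeR called Atp5g2, Cycs and Cyc1 lower. Differences of about 1 on the log2 scale could thus be missed with 3 animals in each species. The size of the median log2 fold change depended on lab rat 3 and woodrat 1. Lab rat 3 was the highest of the 3 lab rats for 87 of the 95 genes (91.6%) and the highest of all 6 animals for 78. It was the highest lab rat for 40.5% of all tested genes and for 58.1% of those with a mean of at least 50 CPM. Without it the median was 0.01 and 45 of the 95 genes were negative, whereas without any other animal the median lay between -0.51 and -0.22. Without both lab rat 3 and woodrat 1, a choice made after seeing the data, the median was -0.20 and 63 genes were negative. The cytosolic ribosomal proteins moved with it, as lab rat 3 was the highest lab rat for all 78 of them that were tested, and the part of whatever these gene groups share in that library was not tested.

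Within woodrats the order was also shared across genes. Woodrat 1 was the highest woodrat for 83 of the 95 genes (87.4%), and woodrat 3 was the lowest of all 6 animals for 49. Woodrat 1 was the highest woodrat for 37.6% of all tested genes and for 41.3% of those with a mean of at least 50 CPM. Woodrat 1 was also the highest woodrat for all 9 smooth muscle markers in the files, and the squamous basal marker Trp63 ran the other way, at 3.32, 11.4 and 100.6 CPM in woodrats 1, 2 and 3. Whether the tissue makeup of each piece bears on the genes of interest was not tested. In bulk tissue, fewer cells of a type and less RNA per cell cannot be told apart.

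**Figure D2:**
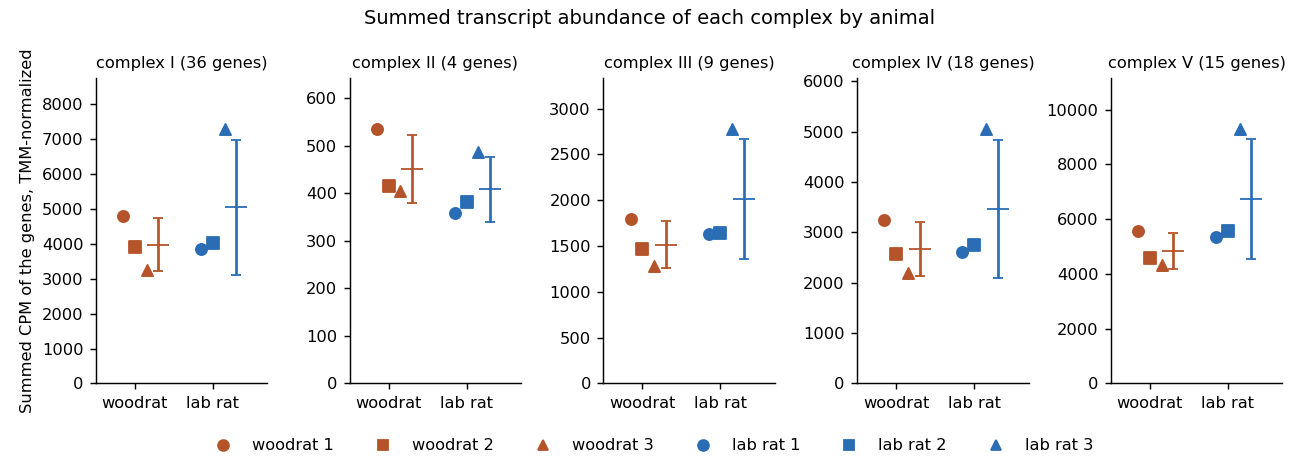
Summed TMM-normalized CPM (y axis, from 0) of the genes of complexes I to V in each animal, with the mean and SD over 3 animals of each species beside the points. Lab rat 3 is the highest animal in complexes I, III, IV and V, and the other lab rats lie within the range of the woodrats for complexes I, III, IV and V.

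Summed over all their genes, the complexes overlapped between the species. Complex I summed to 4776, 3902 and 3241 CPM in woodrats 1, 2 and 3 and to 3837, 4029 and 7270 CPM in lab rats 1, 2 and 3, a log2 ratio of the means of -0.34. For complexes III, IV and V this log2 ratio was -0.41, -0.38 and -0.48, and without lab rat 3 it was -0.11, -0.01 and -0.18, beside 0.01 for complex I. Complex II gave a positive ratio of 0.14, with 452 ± 72.2 CPM (SD, n = 3) among woodrats, against 409 ± 68.3 CPM (SD, n = 3) among lab rats. The animals of the species overlapped in each of the 5 sums, and the SD was larger among lab rats for complexes I, III, IV and V (1929 CPM for complex I beside 769.9 CPM among woodrats) but not for complex II.

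Complex I, the entry point for electrons from NADH, held no differentially abundant subunit among 36. At an unadjusted p below 0.05 in edgeR there were 8, beside 6261 of all 12603 tested genes. DESeq2 called 0 at an FDR below 0.01, beside 31.1% of all tested genes. At an FDR below 0.05 in edgeR there was 1, beside 39.9% of all tested genes. This was Ndufv3, a small accessory subunit of the NADH-binding module. The fold changes were narrow, from -1.04 for Ndufa2 to 0.30 for Ndufa1, with 28 of 36 negative. Ndufa2, an accessory subunit of the peripheral arm, had 45.9, 31.7 and 24.6 CPM in woodrats, against 45.7, 54.1 and 110.0 CPM in lab rats (log2 fold change -1.04, standard error 0.39, FDR = 0.0615, edgeR quasi-likelihood test), so woodrat 1 reached the lowest lab rat. Ndufv3 had 63.1, 58.2 and 47.3 CPM in woodrats, against 83.8, 98.4 and 153.1 CPM in lab rats, without overlap (log2 fold change -0.99, standard error 0.29, FDR = 0.0246). Ndufa1, an accessory subunit of the membrane arm, had 153.9, 112.3 and 110.6 CPM in woodrats, against 80.9, 83.5 and 141.6 CPM in lab rats. Ndufb9, a membrane-arm subunit and the most abundant gene of the complex by CPM, had 388.9, 231.1 and 183.1 CPM in woodrats, against 177.5, 181.9 and 325.3 CPM in lab rats, and the species overlapped (log2 fold change 0.23, FDR = 0.651). The 7 core subunits that carry the flavin and iron-sulfur clusters or bind quinone in the peripheral arm lay between -0.76 and 0.11, with a median of -0.34, and the 29 accessory subunits had a median of -0.32. Every woodrat was below every lab rat for 10 of the 36 genes, and for the other 26 the species overlapped, where 27.4% and 28.8% of all tested genes separated in those directions.

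Shares within complex I were steadier than the levels, because they do not carry the overall height of a library. Ndufab1, the mitochondrial acyl carrier protein, made up 2.54%, 2.68% and 2.60% of the complex I sum of CPM in woodrats and 1.91%, 1.89% and 1.76% in lab rats. Ndufb10, a membrane-arm subunit, made up 2.74%, 3.07% and 3.13% in woodrats, against 4.23%, 4.03% and 4.23% in lab rats. Lab rat 3 lay close to the other lab rats in both shares, although its complex I sum was far above theirs. These shares were set side by side as a description, and both genes were chosen after their values were seen.

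Complex II oxidizes succinate to fumarate and is the only complex here without a mitochondrially encoded subunit. None of its 4 genes was differentially abundant in edgeR or in DESeq2, and their fold changes differed in sign. In edgeR 1 of them (Sdhb) had an unadjusted p below 0.05, beside 6261 of all 12603 tested genes. Sdha, the flavoprotein that holds the active site, had 219, 187 and 205 CPM in woodrats, against 192, 204 and 218 CPM in lab rats, with a log2 fold change whose 95% confidence interval ran from -0.51 to 0.51. Sdhb, the iron-sulfur subunit, had 173.8, 138.9 and 112.9 CPM in woodrats, against 66.6, 73.1 and 120.6 CPM in lab rats (log2 fold change 0.71, standard error 0.30, FDR = 0.0934), and lab rat 3 overlapped with woodrat 3. Sdhc and Sdhd together anchor the enzyme in the membrane, and their fold changes had opposite signs. Sdhc had 72.7, 46.6 and 49.6 CPM in woodrats, against 32.0, 33.7 and 46.0 CPM in lab rats, so that every woodrat was above every lab rat by a narrow gap (log2 fold change 0.60, FDR = 0.112). Sdhd had 69.3, 42.8 and 37.3 CPM in woodrats, against 68.3, 71.0 and 102.5 CPM in lab rats (log2 fold change -0.70, FDR = 0.101), and woodrat 1 overlapped with the lab rats.

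As shares of the complex II sum within each animal, Sdhb, Sdhc and Sdhd separated the species and Sdha overlapped. Of all tested genes, 56.2% separated the species in CPM. Sdhb took 32.5%, 33.4% and 27.9% in woodrats, against 18.6%, 19.2% and 24.8% in lab rats. Sdhd took 13.0%, 10.3% and 9.21% in woodrats, against 19.0%, 18.6% and 21.0% in lab rats. Sdhc took 13.6%, 11.2% and 12.3% in woodrats, against 8.92%, 8.85% and 9.45% in lab rats. The shares of Sdhb and Sdhc were thus higher, and that of Sdhd lower, in all woodrats than in any lab rat. The smallest p an exact permutation test allows here is 0.1, and these shares were not tested.

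The assembly factors of complex II held larger differences than its subunits. Sdhaf1, which helps to insert the iron-sulfur clusters of Sdhb, had 2.15, 2.36 and 1.42 CPM in woodrats (from 11, 17 and 12 reads) and 7.07, 9.10 and 14.6 CPM in lab rats (57, 55 and 76 reads). This was a log2 fold change of -2.37 (FDR = 0.00374, standard error 0.42, edgeR quasi-likelihood test), or 5.17-fold less in woodrats. Sdhaf4, which acts on the flavinated Sdha before it joins Sdhb, had 8.01, 3.33 and 3.44 CPM in woodrats, against 14.3, 16.0 and 21.6 CPM in lab rats (log2 fold change -1.83, standard error 0.42, FDR = 0.00978). The species did not overlap for either gene. Sdhaf2, which is needed to attach the flavin to Sdha, had the opposite sign, with 35.7, 26.5 and 27.4 CPM in woodrats, against 19.5, 21.0 and 18.9 CPM in lab rats (log2 fold change 0.59, FDR = 0.0874), and Sdhaf3 overlapped (log2 fold change 0.47, FDR = 0.446). The abundance of Sdhaf1 in woodrats was only a few times the 0.355 to 0.586 CPM that 3 reads represent in these libraries, and this limit covers counting error only.

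**Figure D3:**
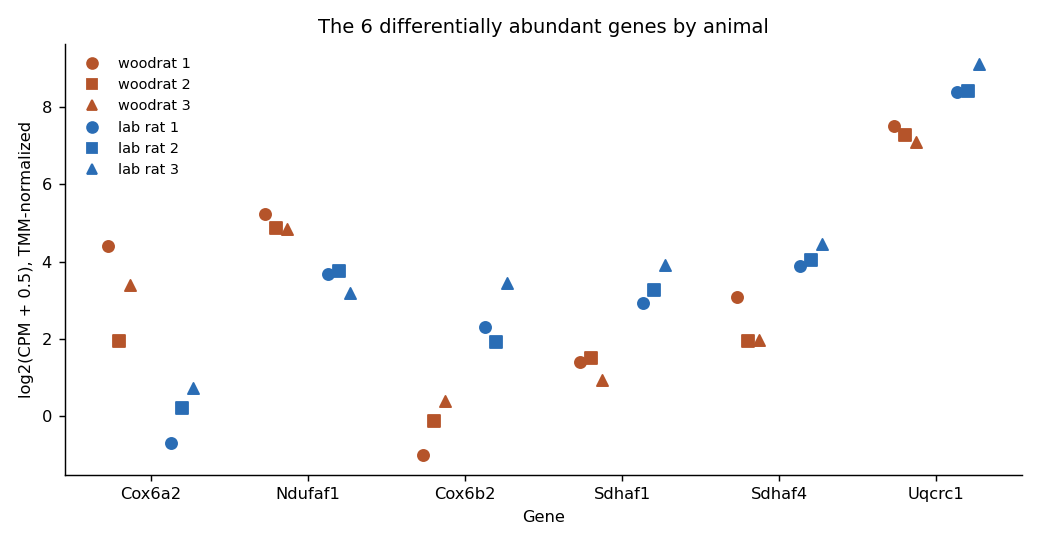
Log2 of CPM with 0.5 added (y axis) in each animal for the 6 genes at an FDR below 0.01 (x axis), woodrats in brown and lab rats in blue. The 3 animals of each species are separated in every gene, and the spread between woodrats is widest for Cox6a2.

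Among the 7 complex I assembly factors, Ndufaf1, which stabilizes an early membrane-arm intermediate, was more abundant in woodrats. It had 36.7, 28.7 and 28.2 CPM in woodrats, against 12.4, 12.9 and 8.67 CPM in lab rats (log2 fold change 1.46, standard error 0.28, FDR = 0.00500, edgeR quasi-likelihood test), without overlap. Lab rat 3 was the lowest lab rat here, against its position for most subunits. Ndufaf7, a mitochondrial methyltransferase, had 11.5, 10.8 and 7.46 CPM in woodrats, against 17.6, 20.7 and 31.0 CPM in lab rats (log2 fold change -1.22, standard error 0.33, FDR = 0.0198). It did not pass the threshold in edgeR, although DESeq2 called it. The other 5 lay between -0.17 for Ndufaf5 and 0.50 for Ndufaf4, with FDR values of at least 0.524. Over all 13 assembly genes, 3 were differentially abundant (23.1%, beside 20.0% of all tested genes), 1 toward woodrats and 2 toward lab rats.

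Complex III passes electrons from ubiquinol to cytochrome c, and 1 of its 9 genes was differentially abundant (11.1%, beside 20.0% of all tested genes). DESeq2 called 2, Uqcrc1 and Cyc1, both lower in woodrats, beside 31.1% of all tested genes. Uqcrc1, a core protein that faces the matrix, had 180.3, 153.0 and 135.7 CPM in woodrats, against 335, 339 and 553 CPM in lab rats. This was a log2 fold change of -1.39 (FDR = 0.00769, standard error 0.30, edgeR quasi-likelihood test), or 2.62-fold less in woodrats. Its partner Uqcrc2 had 304, 302 and 260.1 CPM in woodrats, against 262, 257 and 247 CPM in lab rats, with a log2 fold change of 0.18 (FDR = 0.566), whose 95% confidence interval ran from -0.35 to 0.70. Cyc1, the cytochrome c1 that hands electrons to cytochrome c, had 164.8, 124.8 and 124.6 CPM in woodrats, against 226, 235 and 388 CPM in lab rats (log2 fold change -1.04, FDR = 0.0242). Uqcrfs1, the Rieske iron-sulfur protein, had 109.2, 112.0 and 106.5 CPM in woodrats, against 158.4, 154.7 and 200.9 CPM in lab rats (log2 fold change -0.65, FDR = 0.0486). Neither species overlapped with the other for Cyc1 or Uqcrfs1, although neither gene passed the threshold of 0.01 in edgeR. The small subunits Uqcrq, Uqcrh, Uqcr11, Uqcrb and Uqcr10 lay between -0.60 and 0.13, and all of them overlapped, Uqcrh, the hinge protein, at -0.18 (FDR = 0.713).

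Of the 9 shares of complex III, 5 separated the species and 4 overlapped, where 56.2% of all tested genes separated them in CPM. The shares of Uqcrc1 and Cyc1 differed between the species by more than they varied within either. Uqcrc1 took 10.1%, 10.4% and 10.6% of the complex III sum in woodrats 1, 2 and 3, against 20.5%, 20.6% and 19.9% in lab rats 1, 2 and 3. Cyc1 took 9.19%, 8.51% and 9.69% in woodrats, against 13.9%, 14.3% and 14.0% in lab rats. In both shares lab rat 3 was within 1 percentage point of the other lab rats, although its complex III sum was 2775 CPM against 1633 and 1643 CPM. Uqcrc2 was less even, with 17.0%, 20.6% and 20.2% in woodrats, against 16.1%, 15.6% and 8.91% in lab rats, lab rat 3 being the lowest.

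**Figure D4:**
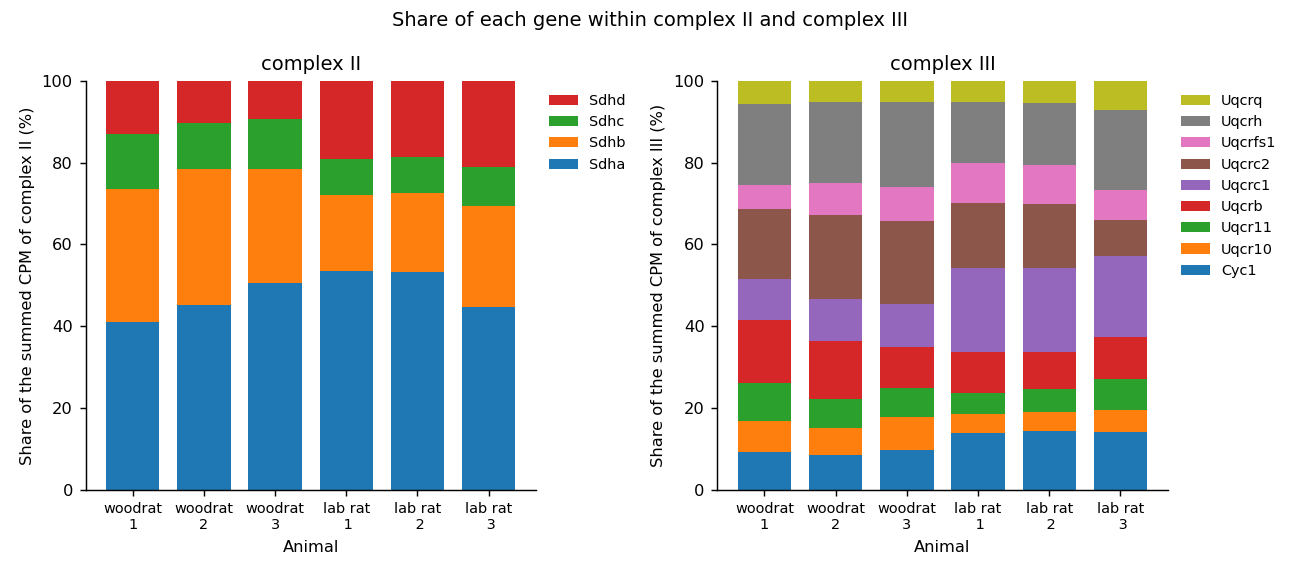
Share of each gene in the summed CPM of complex II (left) and complex III (right), in percent (y axis, from 0 to 100), for each animal (x axis). The Sdhd band is 9.21% to 13.0% in woodrats, against 18.6% to 21.0% in lab rats, and the Uqcrc1 band is 10.1% to 10.6% in woodrats, against 19.9% to 20.6% in lab rats.

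Cycs, the soluble cytochrome c that also triggers apoptosome formation once released, had 123.0, 70.9 and 80.1 CPM in woodrats, against 177.6, 182.9 and 216 CPM in lab rats. Every lab rat was above every woodrat, with a log2 fold change of -1.07 (FDR = 0.0164, standard error 0.28, edgeR quasi-likelihood test), which missed the threshold. DESeq2 called Cycs lower in woodrats. Its electron donor Cyc1 had a fold change of nearly the same size, -1.04. With 1 animal left out in turn, the log2 fold change of Cycs lay between -1.35 and -0.96, and its FDR was 0.00675 without woodrat 1 and between 0.0383 and 0.0730 in the other 5 fits.

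Complex IV, which reduces oxygen to water, held 2 differentially abundant genes among 17 tested (11.8%, beside 20.0% of all tested genes). Both are tissue-specific forms at low abundance. DESeq2 called 2 higher and 2 lower in woodrats, these 2 with Ndufa4l2 (higher) and Cox7b (lower), beside 31.1% of all tested genes. Cox6a2, the heart and skeletal muscle form of subunit 6a, had 20.5, 3.33 and 10.1 CPM in woodrats (105, 24 and 85 reads) and 0.124, 0.662 and 1.16 CPM in lab rats (1, 4 and 6 reads). Its log2 fold change was 4.18 (FDR = 0.00610, standard error 0.85, edgeR quasi-likelihood test), and the lowest woodrat lay above the highest lab rat. Cox6b2, the testis form of subunit 6b, ran the other way, with reads numbering 0, 3 and 7 in woodrats 1, 2 and 3 against 36, 20 and 54 in lab rats (log2 fold change -3.65, standard error 0.77, FDR = 0.00728). Its woodrat values of 0 to 0.829 CPM were at or near the limit that 3 reads set, so the size of this fold change is imprecise, as its 95% confidence interval from -5.41 to -1.89 shows. Cox7a1, the heart and skeletal muscle form of subunit 7a, had 8.59, 3.05 and 1.78 CPM in woodrats, against 0.621, 0.827 and 1.35 CPM in lab rats (log2 fold change 2.25, standard error 0.68, FDR = 0.0304). Ndufa4l2, a hypoxia-inducible paralogue of Ndufa4, had 9.96, 2.22 and 23.5 CPM in woodrats, against 0.993, 1.32 and 0.578 CPM in lab rats (log2 fold change 3.59, standard error 0.83, FDR = 0.0104). Both missed the threshold of 0.01 in edgeR, although all woodrats exceeded all lab rats. Cox4i2, a form known from lung and induced by hypoxia, had 2.54, 4.16 and 4.15 CPM in woodrats, against 4.34, 6.95 and 8.47 CPM in lab rats (log2 fold change -0.84, FDR = 0.124).

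Striated muscle markers were examined beside Cox6a2 and Cox7a1. Of the 14 markers listed, 11 were in the files and 6 were tested. The list summed to between 229.6 and 482.4 CPM in woodrats and between 70.0 and 108.2 CPM in lab rats. Most of this sum was Ckm and Actn3 in every animal. Actn3 had 124.8, 51.22 and 68.35 CPM in woodrats, against 42.69, 60.7 and 40.45 CPM in lab rats, with overlap (log2 fold change 0.76, FDR = 0.120). Ckm, the muscle creatine kinase, had 330.5, 209.9 and 139.7 CPM in woodrats, against 16.1, 26.3 and 36.4 CPM in lab rats (log2 fold change 3.11, FDR = 0.00141), and Tnni2, a fast troponin I, had 23.6, 12.8 and 15.2 CPM and 1.37, 1.16 and 3.47 CPM (log2 fold change 3.13, FDR = 0.00234). Of the 6 tested markers, 3 had a positive and 3 a negative value, with a median of -0.65. Tnnc2, a fast troponin C, and Tnnt3, a fast troponin T, were lower in woodrats without passing the threshold (-3.72, FDR = 0.0129, and -2.06, FDR = 0.0321). Myh1, Myh2 and Myh4 stayed at or below 0.586 CPM in every woodrat and between 0.578 and 2.98 CPM in lab rats. Myh6, another myosin of the list, ran the other way, with 9, 7 and 15 reads in woodrats and 0 in each lab rat. Mylpf was lower in every woodrat than in any lab rat, and Mb overlapped. Myh6, Mylpf and Mb did not pass the filter. The part of muscle cells in the Cox6a2 and Cox7a1 values was not tested.

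The common forms of the same subunits stayed close to each other across the species. Cox4i1, the regulatory subunit that every tissue uses, had 543.9, 427.9 and 301.1 CPM in woodrats, against 427, 465 and 1005 CPM in lab rats (log2 fold change -0.58, FDR = 0.285). The values for Cox6a1, Cox6b1, Cox7a2, Cox8a and Ndufa4 were -0.61, -0.49, 0.15, -0.22 and -0.30 on the log2 scale, with FDR values from 0.190 to 0.756, and each of these genes overlapped between the species. Summing a pair of forms left little of the difference in the rare form. Cox6a1 and Cox6a2 together had 263 ± 66.6 CPM (SD, n = 3) among woodrats, against 383 ± 153.7 CPM (SD, n = 3) among lab rats. Among the remaining subunits, Cox7b, a small membrane subunit, had 149.6, 118.9 and 104.8 CPM in woodrats, against 213.9, 201.0 and 384.5 CPM in lab rats (log2 fold change -1.10, FDR = 0.0260). Cox7c, another small membrane subunit, had a positive value of 0.44 (FDR = 0.309). As a share of the complex IV sum, Cox7c took 9.10%, 8.79% and 8.45% in woodrats, against 4.94%, 5.31% and 4.88% in lab rats, and Cox7b took 4.62%, 4.64% and 4.80% and 8.18%, 7.33% and 7.62%.

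Ratios of isoforms within each animal need no scaling between libraries, and 8 pairs were compared with an exact two-sided permutation test over animals. The log2 ratio of Cox6a2 to Cox6a1 reads was -4.79 ± 1.15 (SD, n = 3) among woodrats, against -9.35 ± 1.04 (SD, n = 3) among lab rats, which differ by 4.56 (exact permutation p = 0.1, Benjamini-Hochberg adjusted p = 0.133 over 8 pairs). Cox6a2 made up 6.06%, 1.40% and 4.74% of the pair in woodrats and at most 0.213% in lab rats. The ratio of Ndufa4l2 to Ndufa4 differed by 3.31, that of Cox7a1 to Cox7a2 by 1.72 and that of Cox6b2 to Cox6b1 by -3.52. These 4 pairs and the pairs of Atp5g1 and Atp5g2 with Atp5g3 separated all woodrats from all lab rats. For each of these 6 pairs the exact permutation p was 0.1, the smallest that 3 animals against 3 allow, and after adjustment 0.133. Cox4i2 to Cox4i1 and Cox8b to Cox8a overlapped, with exact permutation p values of 0.6 and 0.2. Reads of isoforms with like sequences can be assigned to the wrong form, more so in a count on the transcripts of another species. Swaps within a pair leave its total unchanged. Reads left out as not unique, or assigned to a gene outside the pair, would change that total, and their part was not tested.

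**Figure D5:**
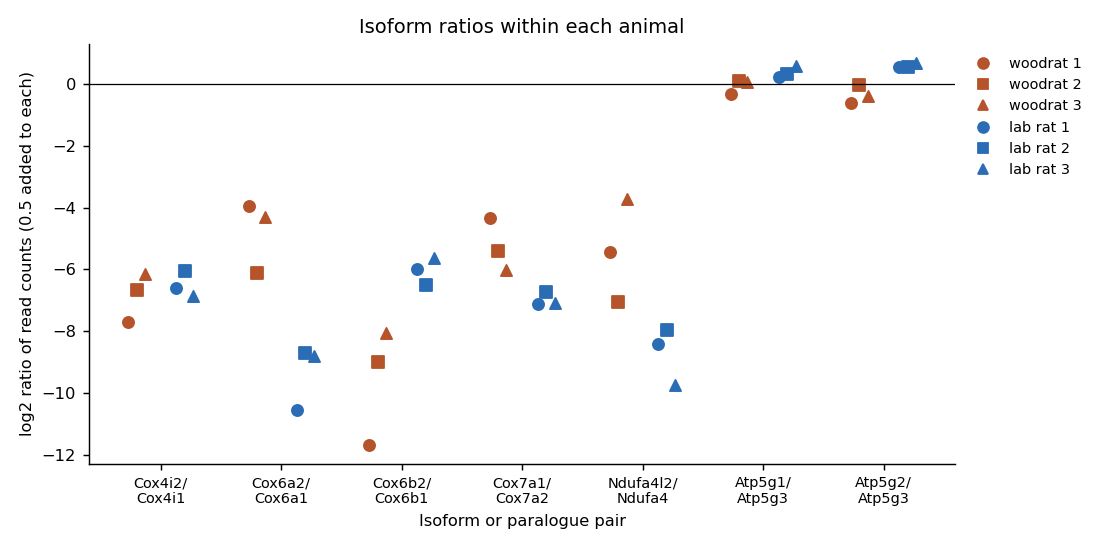
Log2 ratio of the reads of a tissue-specific form, paralogue or alternative gene to those of the common form (y axis, 0.5 added to each count) within each animal, for 7 pairs (x axis). Woodrats and lab rats are separated in every pair shown but Cox4i2 to Cox4i1.

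Complex V makes ATP from the proton gradient, and none of its 15 genes passed the threshold, although 14 had a negative value. At an unadjusted p below 0.05 in edgeR there were 5, beside 6261 of all 12603 tested genes. At an FDR below 0.05 there were 3, beside 39.9% of all tested genes. DESeq2 called 1 at an FDR below 0.01, Atp5g2, beside 31.1% of all tested genes. Atp5b, the catalytic beta subunit, had 1334, 1132 and 1194 CPM in woodrats, against 1389, 1504 and 2040 CPM in lab rats, so the species did not overlap but the step between them was small (log2 fold change -0.43, standard error 0.31, FDR = 0.298, edgeR quasi-likelihood test). Atp5c1, the gamma subunit of the central stalk, had the only positive value, 0.08, with a 95% confidence interval from -0.58 to 0.74. Atp5d, the delta subunit of that stalk, had 163.3, 136.9 and 131.7 CPM in woodrats, against 216, 224 and 433 CPM in lab rats (log2 fold change -1.01, FDR = 0.0371). Atp5f1, subunit b of the outer stalk, had 235, 253 and 236 CPM in woodrats, against 369, 354 and 462 CPM in lab rats (log2 fold change -0.71, FDR = 0.0468). The 5 subunits of the catalytic F1 head and central stalk had a median of -0.43, and the 10 of the membrane part and outer stalk had a median of -0.54, all of them negative.

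Atp5g1, Atp5g2 and Atp5g3 encode the same subunit c, the ring that turns with the flow of protons, and differ in their import sequences. Atp5g2 had 148.6, 153.2 and 109.9 CPM in woodrats, against 254, 261 and 487 CPM in lab rats (log2 fold change -1.28, standard error 0.33, FDR = 0.0161). Atp5g1 had 181.8, 168.1 and 154.1 CPM in woodrats, against 202, 224 and 459 CPM in lab rats (log2 fold change -0.81, FDR = 0.0931). Atp5g3 overlapped between the species (log2 fold change -0.32, FDR = 0.448). The 3 genes together summed to 557.8, 477.9 and 410.6 CPM in woodrats and to 631, 664 and 1252 CPM in lab rats, without overlap. Atp5g2 made up 39.5%, 49.5% and 42.9% of its pair with Atp5g3 in woodrats and 59.3%, 59.2% and 61.4% in lab rats.

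Each of the 6 differentially abundant genes kept its direction when any animal was left out, but not its call. The log2 fold changes stayed between 3.46 and 4.88 for Cox6a2, 1.30 and 1.56 for Ndufaf1, -4.55 and -3.03 for Cox6b2, -2.58 and -2.03 for Sdhaf1, -2.34 and -1.63 for Sdhaf4 and -1.51 and -1.11 for Uqcrc1. Of the 6 calls, 2 remained without woodrat 1, 1 without woodrat 2, 4 without woodrat 3, 1 without lab rat 1 and 0 without lab rat 2 or lab rat 3, and their FDR values stayed at or below 0.0414 in these fits. Over all tested genes these fits called from 898 to 2626.

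The remaining lists of the pathway did not move in 1 direction. The 11 mitochondrially encoded mRNAs in the files had a median log2 fold change of 0.89, 4 of them differentially abundant and higher in woodrats and 1 lower (45.5% together, beside 20.0% of all tested genes), from -2.02 for mt-Nd2 to 4.49 for mt-Nd3. Per read of the nuclear genes examined here there were 7.99, 6.92 and 5.06 mitochondrially encoded reads in woodrats 1, 2 and 3, against 3.53, 3.55 and 2.62 in lab rats 1, 2 and 3, so that every woodrat was above every lab rat. Of 39 further assembly and expression factors, 8 passed the threshold (20.5%, beside 20.0% of all tested genes), 4 toward each species. Toward woodrats these were led by Atpaf1, a chaperone of the F1 beta subunit (log2 fold change 1.87, FDR = 0.00568), Ttc19, a complex III factor (1.69, FDR = 0.00249) and Coa5, a complex IV factor (1.64, FDR = 0.00875). Toward lab rats they were led by Coa7 (-2.04, FDR = 0.00696), Surf1, needed for complex IV (-1.81, FDR = 0.00293), and Timmdc1, needed for complex I (-1.79, FDR = 0.00663). Atpif1, the inhibitor of ATP synthase running in reverse, had 109.2, 71.5 and 65.9 CPM in woodrats, against 194.1, 192.9 and 373.1 CPM in lab rats (log2 fold change -1.63, FDR = 0.00814).

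Of 20 regulators of mitochondrial gene expression, 2 passed the threshold, both toward lab rats, namely Peo1, the mitochondrial DNA helicase (log2 fold change -1.49, FDR = 0.00587), and Mterf1a, a transcription termination factor (-3.19, FDR = 0.000544), whose reads a near-identical mouse copy could share. Ppargc1a, the coactivator of mitochondrial biogenesis, had 3.71, 5.14 and 4.03 CPM in woodrats, against 1.99, 2.32 and 1.93 CPM in lab rats (log2 fold change 1.04, FDR = 0.0507), and Tfam, which packages mitochondrial DNA, had 12.7, 11.1 and 10.3 CPM in woodrats, against 19.4, 24.0 and 30.6 CPM in lab rats (-1.12, FDR = 0.0155). Of 14 citric acid cycle enzymes, Idh2 (log2 fold change 1.60, FDR = 0.00463) and Dlst (1.22, FDR = 0.00676) passed the threshold (14.3%), both toward woodrats. Of 77 mitochondrial ribosomal proteins, 10 passed the threshold (13.0%), 1 toward woodrats and 9 toward lab rats, with a median of -0.46, among them Mrps10 (1.44) toward woodrats and Mrps23 (-2.90), Mrps6 (-1.85) and Mrpl15 (-1.66) toward lab rats. For these proteins lab rat 3 was again the highest lab rat, in 73 of 77 cases. Of 18 genes of the outer membrane, import and cristae, only Tomm70a, an import receptor, passed the threshold (1.04, FDR = 0.00729), or 5.56%. Its direction was not that of most of the list, in which 16 values were negative, with a median of -0.45. DESeq2 called 1 of the 18 higher and 4 lower in woodrats. In each of these 4 lists the share called was below the 20.0% of all tested genes. Of the 4 tested carriers and creatine kinases 0 passed the threshold in edgeR and 1 in DESeq2. At an unadjusted p below 0.05 in edgeR there was 1, beside 6261 of all 12603 tested genes. This was Ckmt1, a mitochondrial creatine kinase (log2 fold change -2.03, FDR = 0.0135).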

How the data were processed

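The authors trimmed read pairs with Trimmomatic, merged them with FLASH, aligned them by cross_match to the GENCODE M7 coding transcripts of mouse, kept the correct strand, left out a list of multiply aligned genes, and deposited raw counts of uniquely assigned reads per mouse gene. The labels name the build mm9. Versions are not given in the sources used here. Each of the 6 libraries is 1 animal, and group and number were taken from the titles. Replicates of a species differed by more than sampling noise (chi-square per degree of freedom at least 10.1).

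Genes reaching 1 CPM in 3 or more animals entered edgeR 4.0.16 under R 4.3.3 (TMM, glmQLFit in the form used before version 4, glmQLFTest on species, Benjamini-Hochberg over 12603 genes, FDR below 0.01). CPM values are TMM-normalized. Standard errors are the log2 fold change divided by the square root of F. On simulated counts for this comparison over 12603 genes, 72% of changes of 2 and 99% of changes of 3 (log2) were recovered. Every simulated gene had the common biological coefficient of variation of 33.98%, and no library had a shift shared between genes. Smaller changes were not simulated, so these rates do not describe them or genes that vary more between animals. Alternatives included DESeq2 1.42.0. Sums, shares and medians carry no test. The genes named are those past the threshold, the extremes and the most abundant gene of each complex, isoform pairs, Sdha to Sdhd, Cyc1 and Cycs. Ndufv3, Ndufab1, Ndufb10, Ndufaf7, Sdhaf2, Sdhaf3, Uqcrfs1, Cox7b, Cox7c, Atp5d, Atp5f1, Atpif1, Ppargc1a, Tfam, Actn3, Tnnc2, Tnnt3, Myh6, Mylpf, Mb and Ckmt1 were added after their values were seen, as were the cytosolic ribosomal proteins. Members and lists were chosen with earlier results of these data known. Among other cell type lists, 3 of 4 tested leukocyte markers were lower in woodrats. None of the tested markers, 0 of 5 endothelial, 0 of 1 adipocyte and 0 of 6 enteric neuron and glia, passed the threshold in edgeR (1, 1 and 2 at an unadjusted p below 0.05, and 1, 1 and 0 in DESeq2). Among all 12603 tested genes, 6261 had an unadjusted p below 0.05 in edgeR. Of 9 other gland genes in the files, only Muc5ac was abundant enough to be tested, and it was higher in woodrats (at most 3.91 CPM). Of 11 squamous markers, Krt4 was higher and Ivl lower.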

Additional observations from a re-analysis of the deposited data

How the results depend on the processing

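Counts of calls moved with the FDR threshold, the fit and the animals included, and the directions of the 6 differentially abundant genes held in every alternative that tested them. Under the filter at 5 CPM, 1 gene was called higher and 2 lower among 88 tested. With total counts only, 1 was called higher and 6 lower, with 810 of all genes higher. DESeq2 called 9 lower, with 3916 of all genes (1986 higher, 1930 lower) and 32 lower in the other pathway lists. At an FDR below 0.05, 4 were higher and 13 lower, with 5026 of all genes (2643 and 2383) and 39 lower in the other lists. The replicate numbers of the titles did not pair the animals (correlations of same-numbered deviations -0.289, -0.0881 and -0.279), and the replicate block left 0 higher and 0 lower, 716 of all genes (373 and 343), and 3 higher and 2 lower in the other lists. Leaving out each animal in turn gave 0 to 3 genes higher, 0 to 3 lower, 898 to 2626 of all genes called, 393 to 1357 higher and 459 to 1269 lower, and 1 to 8 higher and 3 to 13 lower in the other lists. Without woodrat 1 and lab rat 3 together, a choice made after seeing the data, 0 were higher and 3 lower, with 855 of all genes higher, and 6 and 10 in the other lists. The median of complex IV was between -0.64 and -0.07 with 1 animal left out, lab rat 3 giving -0.07. The ratio of Cox4i2 to Cox4i1 ranged from -0.67 to 0.10 with 1 animal left out and reversed to 0.10 without woodrat 1. Medians and sums otherwise moved by less than the SD between animals, pooled over the 2 species. That SD includes lab rat 3, so it is a wide limit for the fit without this animal. There the median of all tested members went from -0.32 to 0.01. Rare forms below 5 CPM are limited by depth.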
